A study of Mus musculus with 33 samples.

Results

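Mature B cells were followed in 4 tissues (bone, brain, liver, lung) of mice that had received an intracardiac injection of tumour cells. Members were chosen by their own UMI counts: a cell was taken as a mature B cell if it held at least 1 unique molecular identifier (UMI, a tag counted once per captured RNA molecule) of each of Cd79a, Cd79b and Ms4a1, and none of Cd3e, Vpreb1, Igll1, Rag1 and Dntt. Cd79a and Cd79b are the signalling chains of the B cell receptor and Ms4a1 is the surface protein CD20. Cd3e marks T cells, and the other absent genes belong to the surrogate light chain and to V(D)J recombination in B cell precursors. In mm10 (GENCODE vM21) Cd79a lies at chr7:24897381-24902197 on the plus strand, Cd79b at chr11:106311341-106314762 and Ms4a1 at chr19:11249675-11266241, both on the minus strand. This rule took 3587 of 55366 cells, or 6.48%, after cells with fewer than 500 UMIs, fewer than 200 genes or more than 15% mitochondrial UMIs had been left out.

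The cells came from SAMENT, a niche labelling method in which tumour cells carry an enzyme that tags their neighbours with biotin. Femurs and tibias, brains, livers and lungs were taken after substrate labelling overnight, dissociated with collagenase and sorted into biotin positive (tagged) and biotin negative (untagged) cells. There were 8 groups of 4 samples, 1 positive and 1 negative group in each tissue, and all 32 samples had the intracardiac injection, with no uninjected group. The labels used here name no strain, genotype, age, tumour line or promoter of the labelling enzyme, and do not say whether replicates were separate mice, so p-values measure the spread between samples only. The untagged cells gave 3072 of the members (bone 717, brain 563, liver 978, lung 814) and the tagged cells 515 (198, 38, 166 and 113).

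Mature B cells leave the bone marrow, recirculate through blood and lymphoid organs, and respond when antigen binds their receptor. Receptor binding, costimulation and cell stress switch on immediate early genes within minutes, among them Junb, the Egr and Nr4a transcription factors and the phosphatase gene Dusp2. Ppp1r15a encodes GADD34, which restores protein synthesis after the integrated stress response, and Cd86 encodes a costimulatory ligand for T cells. Ebf1 and Pax5 encode transcription factors that hold B cell identity, and MHC class II molecules present peptides to helper T cells. Immediate early genes can also be induced while tissue is being dissociated.

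Among genes the rule did not use, the following B lineage genes were examined. Ighd, the IgD heavy chain that newly formed B cells gain as they mature, had a UMI in 66.7% of members (33.3% to 88% by sample) and in 4.00% of the other cells. Ighm was found in 97.4% of members and 25.7% of other cells, Cd74 in 99.7% and 31.96%, H2-Aa in 94.6% and 19.4%, Ebf1 in 93.4% and 5.34%, Ly6d in 89.5% and 5.78% and Pax5 in 56.9% and 2.23%. Cd22, a B cell inhibitory receptor, was found in 44.2% of members against 4.54% of other cells. Fcer2a, the follicular B cell gene for CD23, had a UMI in 24.2%, and Cr2, which encodes the complement receptor CD21, in 15.9%. Vpreb3, which is expressed from precursors to immature B cells, was found in 45.6% of members (17.4% to 70.5% by sample) and 2.25% of other cells. Of the plasma cell genes, Sdc1 was found in 1.78% of members and 1.58% of other cells, Jchain in 4.27% and 2.34%, Prdm1 in 3.99% and 9.68%, and Xbp1, which many secretory cells express, in 14.7% and 46.5%. These shares describe the cells chosen and carry no test.

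Some members also held RNA of other cells. Cd3d had a UMI in 1.95% of members, Nkg7 in 2.40%, Lyz2 in 37.2% (17.7% to 68.5% by sample), Csf1r in 6.38%, C1qa in 4.46%, Siglech in 0.474% and Hbb-bs in 0.892%. Neutrophil RNA was in nearly every cell: S100a8 was found in 90.7% of members, against 93.2% of cells with Cd3e and no Cd79a, and S100a9 in 93.5% against 95.5%. The summed level of 8 neutrophil genes in members ran from 1500 CPM (counts scaled to a common total) in tagged brain replicate 4 to 187564 CPM in tagged bone replicate 2. Csf3r, a less abundant neutrophil gene, was in 7.58% of members and 50.3% of other cells. Cd93, a marker of immature B cells that many myeloid cells also express, was in 6.72% of members.

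The rule cut through a continuous range of low counts. A member had a median of 6 UMIs of Cd79a, 3 of Cd79b and 2 of Ms4a1, with 2603 UMIs and 1085 genes in all, and 39 members stood at 1 UMI of each of the 3 genes. Just outside stood 1924 cells with exactly 2 of the 3 genes and none of the absent genes, of which 1415 lacked Ms4a1, 448 lacked Cd79b and 61 lacked Cd79a; their median was 2120 UMIs. The absent genes removed 72 of 3659 cells with all 3 genes, 54 of them with Cd3e. A stricter rule that also required no UMI of Cd3d, Nkg7, C1qa, Csf1r, Csf3r, Siglech, Sdc1 or Hbb-bt kept 2918 members, which was 83.7% of the untagged and 67.2% of the tagged ones. Doublet scores were in the top 5% of their sample for 5.57% of untagged and 11.5% of tagged members, which had median depths of 2537 and 3465 UMIs.

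Sample totals ran from 482617 to 4.48347e+07 UMIs over the kept cells. The 8 samples with the same replicate number shared 1 set of 8 multiplexing tags, and replicates 3 and 4 carried the same set, so the tags do not tell these replicate numbers apart. No barcode was shared within a replicate number, in 112 pairs of samples, and 325 were shared between samples of different numbers, where 1 barcode was shared among members. Expression was compared over 27 samples with at least 10 members, which held 3563 members and between 63139 and 1.48525e+06 member UMIs each. All 16 untagged samples were among them, but only 3 tagged samples of bone, 2 of brain, 3 of liver and 3 of lung.

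Mature B cells made up a smaller share of the tagged than of the untagged cells in every tissue. In bone, the share in replicates 1 to 4 was 13.4%, 4.32%, 5.48% and 2.17% of untagged cells and 7.32%, 2.25%, 3.06% and 1.04% of tagged cells. In brain it was 14.4%, 1.85%, 8.65% and 5.15% of untagged cells and 4.53%, 0.296%, 0% and 1.64% of tagged cells, where the 0 is 0 of 310 cells. By counting error alone that allows up to 0.968% of cells passing this rule, not of all B cells: 4 of the 310 cells passed a looser rule that asked for 2 of its 3 genes. In each pair with the same replicate number the tagged sample was the lower, although the groups overlapped in both tissues.

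In liver, mature B cells were 14.2%, 4.21%, 16.8% and 10.6% of untagged cells and 7.29%, 1.35%, 7.27% and 9.57% of tagged cells. In lung, they were 4.67%, 2.42%, 15.6% and 9.02% of untagged cells and 1.76%, 0.169%, 1.89% and 4.72% of tagged cells. Bone thus averaged 6.33% ± 4.89 against 3.42% ± 2.73, brain 7.50% ± 5.35 against 1.62% ± 2.07, liver 11.4% ± 5.44 against 6.37% ± 3.52 and lung 7.92% ± 5.79 against 2.13% ± 1.89 (SD, n = 4 each, untagged first). Leaving out single samples moved the mean difference from -2.92 points to between -4.30 and -0.570 (bone), from -5.88 to between -7.77 and -3.60 (brain), from -5.08 to between -7.49 and -3.30 (liver) and from -5.79 to between -7.62 and -3.24 (lung).

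Within a tissue the spread between replicates was too wide for the test. The two-sided exact permutation p was 0.4 for bone, 0.0571 for brain, 0.171 for liver and 0.0857 for lung, where 4 samples against 4 can give 0.02857 at the least, and the values adjusted over the 4 tissues were 0.4, 0.171, 0.229 and 0.171. Pairing samples by replicate number, the tagged share was the lower one in 16 of 16 pairs, with a mean difference of -4.92 percentage points (SD 3.77) and a median ratio of 0.405. The two-sided exact sign-flip p over these 16 pairs was 3.05176e-05, the smallest that their 65536 sign assignments allow. That p takes the pairs as independent, and the tissues share replicate numbers; over the 4 replicate numbers alone the exact p was 0.125, the smallest 16 assignments allow.

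With every cell thinned to 1000 UMIs the mean difference was -2.34 points, again lower in 16 of 16 pairs, and under the stricter rule it was -4.36 points, lower in 15 of 16. Whether the drop differed between tissues was tested by comparing each tissue with the others: exact p lay between 0.239 and 0.923 (0.821 to 0.923 adjusted), so no difference was detectable. Among untagged cells, none of the 6 pairs of tissues differed in the share of mature B cells after adjustment (adjusted exact p 0.743 to 0.857). This test leaves the replicate numbers aside: liver was above lung in 4 of 4 pairs of the same number, by 3.53 points on average (adjusted exact p = 0.743 unpaired).

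**Figure D1:**
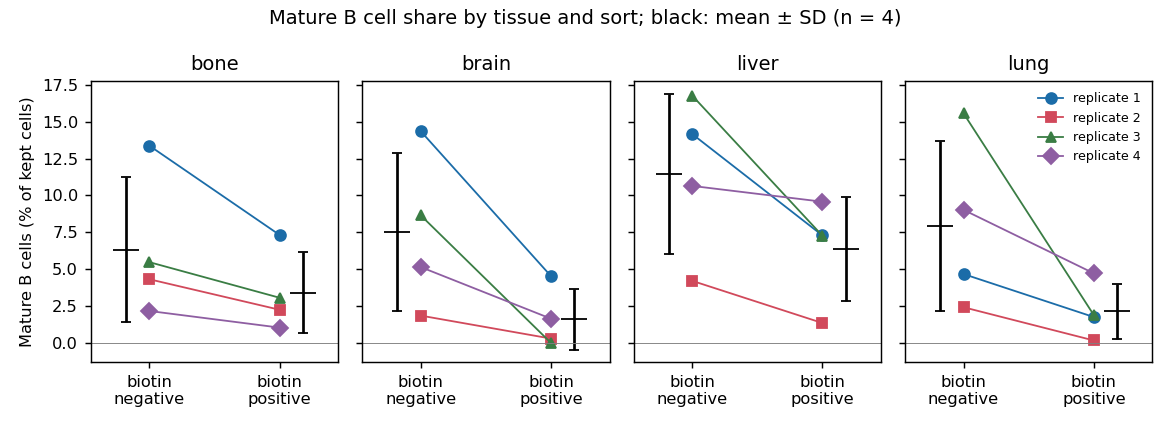
Mature B cells as a percentage of the kept cells (y axis) of each sample, untagged and tagged, in 4 tissues; points are samples, marker and line colour give the replicate number, lines join samples with the same number, and black bars are mean ± SD (n = 4). All 16 lines fall from the untagged to the tagged sample.

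Set against T cells alone, taken as cells with Cd3e and no Cd79a, the B cell share had no common direction over the tissues. Mature B cells were 32.7% ± 10.6 of B and T cells in untagged lung and 32.8% ± 14.02 in tagged lung (SD, n = 4). Bone had 57.2% ± 9.56 and 48.5% ± 13.5, brain 45.1% ± 16.6 and 25.3% ± 28.2, and liver 63.0% ± 12.3 and 71.6% ± 13.4, untagged first. No tissue passed the exact permutation test (adjusted p 0.571 to 1). Against bone and liver, untagged lung had the lower B cell share: its 4 samples, at 17.7% to 41.1%, lay below all 4 of bone (44.8% to 65.0%) and all 4 of liver (45.1% to 72.3%), each with exact permutation p = 0.02857, the smallest possible, and 0.0857 after adjustment over 6 pairs. Brain, at 33.3% to 68.7%, overlapped lung (exact permutation p = 0.314, adjusted 0.377).

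The makeup of the mature B cells was described by their light chain, isotype, Cd93 and cell cycle genes. Cells with more lambda than kappa light chain UMIs were 11.0% to 15.9% of members in 7 groups by mean and 21.6% in tagged brain (n = 2). Class-switched cells, with more IgG, IgA or IgE than IgM and IgD UMIs, were 0% to 8.71% by group mean. Members with a Cd93 UMI were 11.1%, 9.0%, 12.7% and 5.3% of untagged bone members. Their mean was 9.52% ± 3.21 (SD, n = 4) against 3.71% in the 12 other untagged samples (exact permutation p = 0.00385, 0.0769 after adjustment over 20 tests of such shares). Tagged liver and lung had higher means, 15.5% ± 11.8 and 15.7% ± 15.7 (SD, n = 3 each), against 3.45% and 3.82% untagged (adjusted exact permutation p = 0.286 and 0.762). Tagged bone and brain members had 7.20% and 4.00%. Cells with UMIs of at least 2 cell cycle genes were 28.3% ± 8.47 of tagged and 11.9% ± 3.32 of untagged lung members, and 21.1% ± 12.7 of tagged and 8.62% ± 3.46 of untagged liver members (exact permutation p = 0.02857 and adjusted p = 0.190 in each; n = 3 against 4). Depth moved with these shares: tagged and untagged members had medians of 4947 and 2967.5 UMIs in lung and of 3416.5 and 2532.5 UMIs in liver. With each member thinned to 1000 UMIs the difference went from 16.5 to 1.40 points in lung and from 12.5 to 3.55 points in liver (adjusted exact permutation p = 0.734 and 0.286), and the Cd93 difference of bone from 5.81 to 2.32 points (0.286). The cell cycle list had positive fold changes for 9 of 14 genes in tagged lung and 13 of 14 in tagged liver, and for 3 of 14 in tagged bone (median log2 fold change -0.0973). Over the tissues it had 1 of 14, with a median log2 fold change of -0.76, and none passed. That value is the mean of the 4 tissue contrasts, in which tagged brain, with 2 samples and 36 members, weighs as much as the others. None of the 20 tests passed adjustment; without untagged bone replicate 4 that of Cd93 did (adjusted exact permutation p = 0.0440).

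Between tissues, the untagged B cells of bone had the most genes past the test in the main setting, but not under the stricter rule, where lung had more. Of 7989 genes tested with edgeR's quasi-likelihood test, 22 (0.275%) differed between bone and the mean of brain, liver and lung at a Benjamini-Hochberg adjusted p under 0.05, of which 13 were higher (0.163%) and 9 lower (0.113%). The lower genes were Junb, Egr1, Dusp2 and Cd86, which are 4 of the 19 genes of the activation and immediate early list, and Ppp1r15a, Gem, Coq10b, Ahcyl2 and Rlim. The higher genes were Ccnb1, 1 of the 14 genes of the cell cycle list, with Pbk, Plk1, Tpx2, Cdc20, Ccna2, Nusap1 and Ckap2l, and G6pdx, Rnaseh2b, Stfa3, Siglech and the kappa variable gene Igkv4-72. Levels below are CPM, the UMIs of a gene scaled to a common total of the summed UMIs of a sample's members.

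Ppp1r15a (chr7:45522916-45526268, minus strand) stood at 80.9, 59.8, 58.9 and 76.7 CPM in the 4 bone samples, with a mean of 69.1 ± 11.4 (SD, n = 4). In the 12 other untagged samples its lowest level was 120.1, its median 192.0 and its highest 248 CPM. The groups did not overlap, which held for 37 genes (0.463%) in the comparison of bone with the other tissues. The log2 fold change, the log2 of the ratio of the fitted levels and below also called the log2 difference, was -1.46 ± 0.25 (SE; adjusted p = 0.00938 by edgeR), and 26 alternative settings gave -1.56 to -1.28, with adjusted p from 8.23e-06 to 0.237.

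Junb (chr8:84974484-84978718, minus strand), an AP-1 transcription factor gene, stood at 483.9, 569, 353 and 495 CPM in bone. The other untagged samples ran from 639.7 through a median of 1215 to 1446 CPM, again without overlap. The log2 fold change was -1.25 ± 0.25 (SE; adjusted p = 0.0222 by edgeR), with alternatives between -1.35 and -1.14. Dusp2, a nuclear phosphatase that acts on MAP kinases, stood at 180.4, 117, 156 and 139 CPM in bone and at 197 to 543 CPM elsewhere, a log2 difference of -1.08 ± 0.23 (SE; adjusted p = 0.0222 by edgeR).

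Egr1, a zinc finger transcription factor gene, was at 43.6, 64.6, 123 and 56.9 CPM in bone and at 103 to 416 CPM in the other untagged samples. The highest bone sample overlapped the lowest of the others, and the log2 fold change was -1.94 ± 0.42 (SE; adjusted p = 0.0460 by edgeR). Cd86 was at 22.1, 11.95, 22.1 and 27.2 CPM in bone and at 24.9 to 103 CPM elsewhere, with a log2 difference of -1.51 ± 0.32 (SE; adjusted p = 0.0282 by edgeR). Of 16 fits that each left out 1 sample, 14 ended the call of Egr1, 7 that of Cd86 and 10 that of Gem, against 2 for Ppp1r15a and 3 for Junb and Dusp2. Of the activation and immediate early list, 4 of 19 genes were lower and none of the 19 had a positive fold change; the list's median log2 fold change was -1.08, where that of all genes was 0.0214. The 10 MHC class II genes were likewise all below 0, with a median of -0.64, but none passed: H2-Aa had a log2 fold change of -0.74 (edgeR adjusted p = 0.465) and Cd74 one of -0.53 (adjusted p = 0.643).

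**Figure D2:**
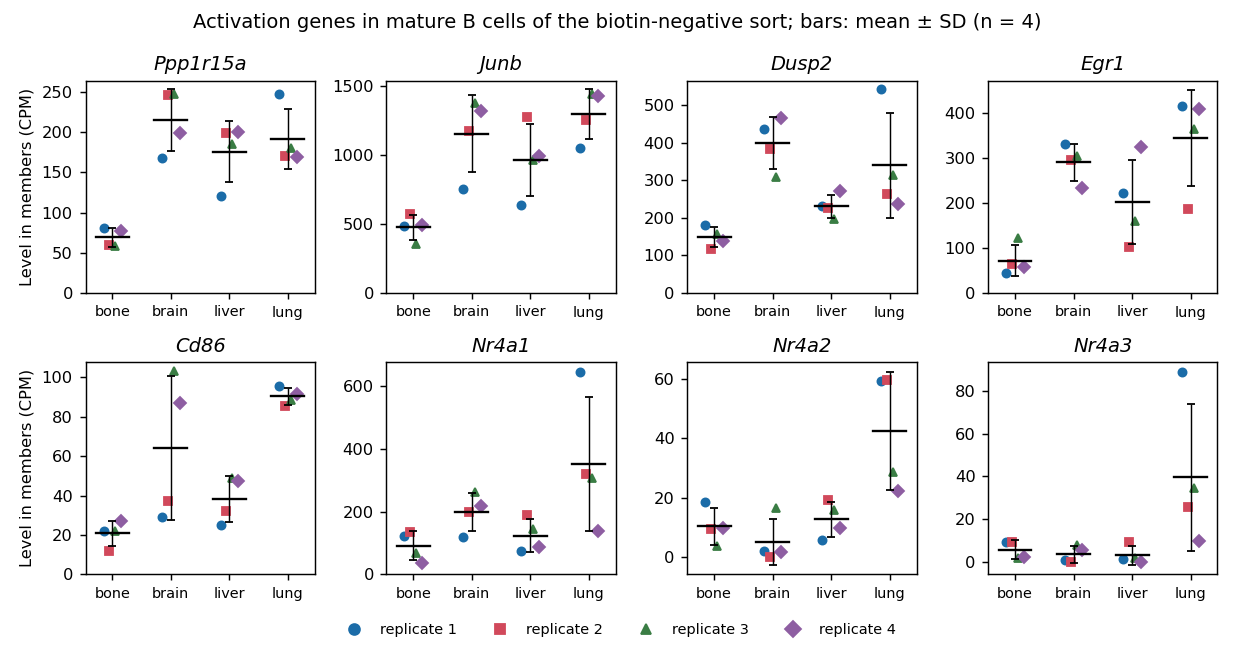
Level of activation genes in untagged mature B cells, in CPM of summed UMIs (y axis of each panel), by tissue; points are samples with marker and colour by replicate number, and black bars are mean ± SD (n = 4). Ppp1r15a and Junb are lowest in all 4 bone samples, and Nr4a2 and Nr4a3 are highest in lung.

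Ccnb1, cyclin B1, was at 11.1, 31.1, 38.7 and 39.6 CPM in bone and at 0 to 8.19 CPM in the other untagged samples, a log2 difference of 2.82 ± 0.51 (SE; adjusted p = 0.0139 by edgeR). Ccna2, cyclin A2, was at 15.9, 35.9, 33.1 and 34.7 CPM in bone against 0 to 15.5 CPM, a log2 fold change of 2.06. Pbk, Plk1, Tpx2, Cdc20, Nusap1 and Ckap2l, all of the mitotic spindle or its control, rose with log2 fold changes of 3.59, 3.21, 2.61, 2.35, 2.25 and 2.49. Many of the 22 calls did not hold when 1 of the 16 samples was left out: that ended the call of Nusap1 in 15 fits, Ccna2 and Siglech in 12 each, Cdc20 in 8, Plk1 and Tpx2 in 5 each and Ccnb1 in 3, and among the lower genes that of Ahcyl2 and Rlim in 13 each. All 14 genes of the cell cycle list had positive fold changes, with a median of 1.70, and 1 passed. These levels are low, and the share of bone members with at least 2 cell cycle genes was 11.1% ± 3.19 (SD, n = 4), close to the 9.83% of the other untagged samples.

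RNA of other cells moved with this comparison. Of the 13 genes higher in bone members, 12 had more CPM in the other cells of bone than in the members. Among all tested genes 29.9% did. None of the 9 lower genes did, but this cannot speak to them, as such RNA would have to raise them in the other tissues. In untagged lung, the pooled other cells and members stood at 2457 and 1268 CPM for Junb, and at 36.8 and 83.9 CPM for Cd86. The other lower genes were not compared in this way. Siglech, a gene of plasmacytoid dendritic cells, was at 31.8, 11.95, 0 and 0 CPM in the bone samples, and Stfa3, a myeloid gene, at 8.30, 143, 1.84 and 4.95 CPM, so each of those calls rested on 1 or 2 samples. The summed level of 8 neutrophil genes ran from 14342 to 96874 CPM in bone members, and from 8689 to 65776 CPM in the other untagged groups. All 8 had positive fold changes, with a median log2 fold change of 1.93 and 0 past the threshold; none was at 0 in any untagged sample, and their part in the result was not tested. Under the stricter rule 2 genes passed, Ppp1r15a at -1.28 ± 0.22 (SE; adjusted p = 0.00559 by edgeR) and Junb at -1.17 ± 0.23 (adjusted p = 0.0252), and none of the 13 higher genes did. Without bone replicate 3 or bone replicate 4 the count was 0, without bone replicate 2 it was 3 and without bone replicate 1 it was 40; leaving out brain replicate 4, liver replicate 1, 3 or 4, or lung replicate 3 or 4 gave 13, 10, 12, 13, 8 and 14. With the replicate number as a block 76 genes passed, 34 higher and 42 lower, 21 of the 22 among them.

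Genes of B cell immaturity were higher in bone in sign but not by the test, and so they were in brain. Of the transitional and immature list, 9 of 11 genes had positive fold changes in bone, with a median log2 fold change of 0.71 and none past the threshold. In untagged brain 9 of 11 did, with a median of 0.318 and none past the threshold, against 1 in liver and 2 in lung. The list counts Ms4a1, which the rule required in every member, so these figures draw in part on the rule itself. Vpreb3 stood at 476 ± 159 CPM in bone and 283 ± 190 CPM elsewhere (SD, n = 4 and 12), a log2 difference of 0.88 ± 0.27 (SE; adjusted p = 0.221 by edgeR). Cxcr4, the receptor that holds B cells in bone marrow, was at 205 ± 125 CPM in bone and 394 ± 179 CPM elsewhere, a log2 difference of -0.92 ± 0.40 (SE; adjusted p = 0.525 by edgeR). With the replicate number as a block, Vpreb3 and Cxcr4 both passed in bone.

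In untagged lung B cells, 2 of 7989 genes (0.025%) passed against the other tissues, and both were NR4A receptors. Nr4a1, Nr4a2 and Nr4a3 are orphan nuclear receptors; Nr4a1 is a widely used reporter of antigen receptor signalling, and the family restrains activated lymphocytes. Nr4a2 and Nr4a3 were picked out after their values were seen, since their mean level fell below the minimum of 5 on the log2 CPM scale set for named genes. The 250 bases upstream of the RefSeq start of each NR4A gene (GRCm38.p6) are shown because the 3 genes had the same sign in lung and their induction by cAMP signalling is textbook knowledge. Capitals mark TGACG, the core of the cAMP response element, on either strand, so that CGTCA is the same motif read from the other strand.
Nr4a1, chr15:101266596-101266845, plus strand: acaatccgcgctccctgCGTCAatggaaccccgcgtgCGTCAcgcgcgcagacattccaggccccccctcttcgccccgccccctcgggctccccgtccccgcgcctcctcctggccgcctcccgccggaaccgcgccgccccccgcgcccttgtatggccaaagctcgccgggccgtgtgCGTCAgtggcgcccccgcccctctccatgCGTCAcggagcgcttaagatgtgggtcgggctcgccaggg
Nr4a2, chr2:57124004-57124253, minus strand: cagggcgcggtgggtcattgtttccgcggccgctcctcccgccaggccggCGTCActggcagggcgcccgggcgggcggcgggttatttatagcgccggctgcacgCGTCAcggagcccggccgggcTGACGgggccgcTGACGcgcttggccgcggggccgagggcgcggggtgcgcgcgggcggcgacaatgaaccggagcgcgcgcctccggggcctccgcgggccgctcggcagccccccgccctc
Nr4a3, chr4:48045055-48045304, plus strand: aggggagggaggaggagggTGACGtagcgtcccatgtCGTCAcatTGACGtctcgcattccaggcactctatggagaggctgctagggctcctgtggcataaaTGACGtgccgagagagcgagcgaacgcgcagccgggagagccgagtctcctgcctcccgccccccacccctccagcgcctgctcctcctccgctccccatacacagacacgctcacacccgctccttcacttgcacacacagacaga
Each window held the motif 4 times and the full element TGACGTCA 0 times. The motif occurred at least once in 17.8% of 32851 RefSeq windows of the same length, and at least 4 times in 0.137% of them; the full element occurred in 1.55%. The trait was not limited to genes higher in lung: the window of Coq10b, lower in bone, also held the motif 4 times, and that of Ppp1r15a held it 2 times, with the full element 1 time. These matches describe letters in the windows, and no binding was measured.

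Nr4a2 stood at 59.1, 59.7, 28.7 and 22.1 CPM in the 4 untagged lung samples, from 26, 14, 33 and 27 UMIs. In the 12 samples of the other tissues it ran from 0 through a median of 9.72 to 19.3 CPM, so all 4 lung samples were higher. The log2 fold change was 2.19 ± 0.42 (SE; adjusted p = 0.0410 by edgeR). Nr4a3 stood at 88.7, 25.6, 34.8 and 9.83 CPM in lung, from 39, 6, 40 and 12 UMIs, against 0 to 9.68 CPM elsewhere. Its 4 lung samples were also the highest, replicate 4 by a narrow margin, with a log2 difference of 3.26 ± 0.59 (SE; adjusted p = 0.0410 by edgeR). Groups did not overlap for 10 genes (0.125%) in this comparison.

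Nr4a1 was more abundant and did not pass. It was at 646, 320, 306 and 137 CPM in lung and at 37.1 to 264 CPM in the other tissues, with a log2 difference of 1.43 ± 0.32 (SE; adjusted p = 0.168 by edgeR), and passed without lung replicate 4 (adjusted p = 0.0169). Cd86 was even among the lung samples, at 95.5, 85.3, 88.6 and 91.7 CPM, against 11.95 to 103 CPM elsewhere, a log2 difference of 1.27 ± 0.26 (SE; adjusted p = 0.0826 by edgeR). Egr3, a target of calcium and MAP kinase signalling, had a log2 difference of 1.58 ± 0.33 (SE; adjusted p = 0.109 by edgeR). It passed without lung replicate 4 (edgeR adjusted p = 0.0228) or brain replicate 4, and Cd86 without brain replicate 3 or brain replicate 4 (lowest adjusted p 0.0301). Cd86 also passed with the replicate number as a block. Junb was at 1297 ± 184 CPM in lung and 866 ± 363 CPM elsewhere (SD, n = 4 and 12), a log2 fold change of 0.68 (adjusted p = 0.735). Of the activation and immediate early list 15 of 19 genes had positive fold changes, with a median of 0.74 where all genes had -0.0164, and the 10 MHC class II genes were all above 0 with a median of 0.29; none of either list passed.

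The NR4A receptors were at higher levels in the other cells of lung than in its B cells. Nr4a2 stood at 84.7 CPM in the pooled other cells and 30.4 CPM in the pooled members of untagged lung, and Nr4a3 at 60.9 and 29.5 CPM; the part of other cells' RNA in the result was not tested. The T and NK cell list had 4 of 4 tested genes with positive fold changes in lung, with a median of 0.76, and its 9 genes summed to 12.5 to 367 CPM in untagged lung members and 12.8 to 756 CPM in the other untagged groups; in lung replicate 2, 6 of the 9, Trac and Trbc2 among them, were at 0. Monocyte and macrophage genes summed to 543 to 1993 CPM in untagged lung members and to 341 to 3732 CPM in the other untagged groups. Under the stricter rule 5 genes passed: Nr4a3 at 3.37 (edgeR adjusted p = 0.00287), Nr4a2 at 2.34 (0.0244), Hs3st1 at 1.48, Cd86 at 1.32 (0.0394) and Egr3 at 1.55 (0.0453). The calls were close to the threshold: both genes failed it in 14 alternatives, the count fell to 0 with DESeq2, with at least 20 members a sample, and without any single one of bone replicates 2 to 4, brain replicates 1 and 2, liver replicates 1, 3 and 4, or lung replicates 1 to 3, and it was 3, 8 and 9 without brain replicate 3, brain replicate 4 and lung replicate 4. Over these settings the log2 fold change kept its sign, between 1.95 and 2.54 for Nr4a2 and between 2.54 and 3.67 for Nr4a3. With the replicate number as a block 14 genes passed, the same 2 among them.

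In untagged brain and liver B cells, 0 genes (0%) passed against the other tissues in edgeR's quasi-likelihood test, and 0 with DESeq2; 169 and 177 genes had an unadjusted p under 0.05. Brain samples did not overlap those of the other tissues for 10 genes (0.125%), and liver samples for 4 (0.0501%). In brain, 18 of 19 genes of the activation and immediate early list had positive fold changes, with a median log2 fold change of 0.57. In liver 9 of 19 did, with a median of -0.0852, while none of the 14 cell cycle genes had a positive fold change, with a median of -1.38. The 4 comparisons between tissues share their samples, so a gene low in bone raises the contrast of the other tissues.

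Tagged B cells were compared with untagged ones of the same tissue. In bone 0 of 7989 genes (0%) passed in edgeR's test (0 with DESeq2; 334 at an unadjusted p under 0.05). In brain 22 genes were higher (0.275%) and 0 lower, in liver 16 higher (0.2%) and 0 lower, and in lung 220 genes passed (2.75%), 208 higher (2.6%) and 12 lower (0.15%). Groups did not overlap for 6.03% of genes for bone, 18.6% for brain, 7.81% for liver and 11.6% for lung, and few tagged samples make this common. With the replicate number as a block the counts were 1 (bone), 50 (brain), 37 (liver) and 458 (lung), the last with 321 higher and 137 lower. The difference between tagged and untagged cells was also compared between tissues, and 0 genes passed for any tissue (361 to 474 at an unadjusted p under 0.05; lowest edgeR adjusted p 0.0595, for lung), so these counts do not show that the tissues differ.

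The brain and liver calls came from very few cells. In brain, the higher genes included those of blood vessel lining: Flt1, a VEGF receptor, was at 489 and 0 CPM in the 2 tagged samples and at 0 to 1.08 CPM in the untagged ones, and Vwf, von Willebrand factor, at 858 and 0 CPM and at 0 in all 4. Of 1122 UMIs of the 22 genes in tagged brain members, 1 of 38 cells held 75.0% and 3 held 92.0%. Without tagged brain replicate 1 the fold changes of Flt1, Cldn5 and Slc2a1 turned negative, and 1 gene passed; without untagged brain replicate 1 or 4, 0 passed, without untagged replicates 2 and 3 it was 14 and 7, and without tagged replicate 4 it was 101. The stricter rule left 1 tagged brain and 2 tagged liver samples; a lone sample is taken there to vary like the other groups. Nfkbia, the inhibitor of NF-kappa B that its own pathway induces, was at 663 and 713 CPM in the tagged samples and at 275, 210, 222 and 251 CPM in the untagged ones, a log2 difference of 1.499 ± 0.33 (SE; adjusted p = 0.0335 by edgeR). Leaving out any 1 of the 6 brain samples ended this call (edgeR adjusted p 0.0721 to 0.685), and the other cells of tagged brain held more Nfkbia, at 882 CPM in their pool against 702 CPM in that of the members.

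In liver, 1 of 166 tagged members held 48.9% and 3 held 95.03% of the 3985 UMIs of the 16 higher genes. Spp1, osteopontin, was at 4524, 19.3 and 22.2 CPM in the tagged samples and at 15.8, 32.1, 20.9 and 3.95 CPM in the untagged ones. Its log2 difference of 6.47 ± 1.301 (SE; adjusted p = 0.0407 by edgeR) fell to -0.86 under the stricter rule and -0.49 without the top 5% of doublet scores, and under both no liver gene passed. Leaving out untagged liver replicate 1 or 4, or tagged liver replicate 1, gave 0 calls, untagged replicates 2 and 3 gave 4 and 1, and tagged replicate 3 gave 61.

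**Figure D3:**
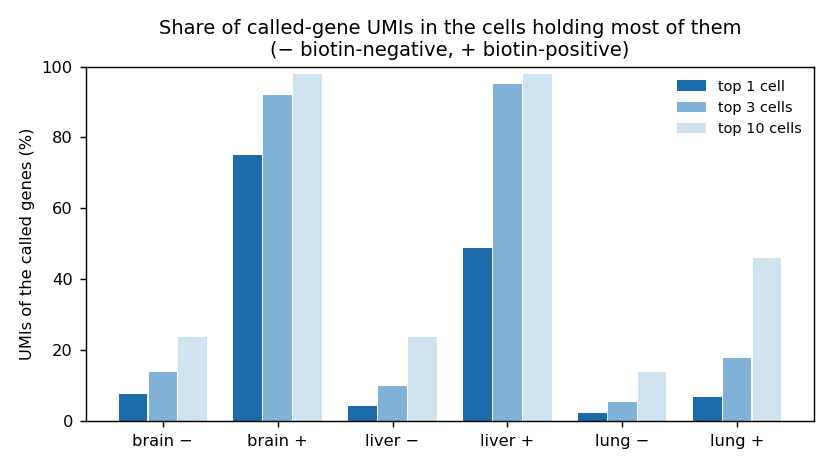
Share of the UMIs of the genes higher in tagged members (y axis, percent) that sits in the 1, 3 and 10 members holding most of them (bars, dark to pale), for untagged (−) and tagged (+) members of brain, liver and lung. In tagged brain 1 of 38 cells holds 75.0%, in tagged liver 3 of 166 hold 95.03%, and in tagged lung 10 of 113 hold 46.0%.

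In lung the higher genes included some known from alveolar macrophages and dendritic cells. Ear2, an eosinophil-type ribonuclease of alveolar macrophages, was at 514, 508 and 123 CPM in tagged samples 1, 3 and 4 and at 2.27, 51.2, 31.3 and 2.46 CPM in the untagged ones, a log2 difference of 4.36 ± 0.81 (SE; adjusted p = 0.00645 by edgeR). Plet1, Lpl (lipoprotein lipase), Cd63, Fabp5 and Sgk1 had log2 fold changes of 7.24, 6.00, 4.01, 3.87 and 3.65, and of the gene lists Cd9, Itgax (CD11c) and Tnf rose by 3.52, 3.19 and 2.92. Of 7 fits that each left out 1 sample, 4 ended the call of Lpl, 3 that of Cd63 and 2 that of Tnf, which fell to 1.55 at the lowest. For Ear2, Plet1, Sgk1 and Itgax 1 fit each did, and for Fabp5 and Cd9 0 did. Of the 208 higher genes, 182 (87.5%) had more CPM in the other cells of tagged lung than in the members, where 47.4% of all tested genes did. Members with UMIs of at least 3 of 9 monocyte and macrophage genes were 24.8% of tagged and 2.83% of untagged lung members in samples with at least 10 members. Tagged replicate 1 held most of them: 22 of its 54 members, against 1 of 23 in replicate 3 and 4 of 32 in replicate 4. The 9 genes summed to 1627 to 4873 CPM in tagged and 543 to 1993 CPM in untagged members. In tagged replicate 3, 6 of the 9, Csf1r and all 3 C1q genes among them, were at 0. The part of such RNA in the lung result was not tested; 10 of 113 cells held 46.0% of the UMIs of these genes. Genes of vessel lining and platelets were also among the higher ones. Flt1 was at 127, 39.6 and 0 CPM in tagged samples 1, 3 and 4 and at 0 to 0.869 CPM in the untagged ones, a log2 fold change of 6.80 (edgeR adjusted p = 0.00649). Cldn5, a tight junction gene of vessels, was at 68.6, 0 and 0 CPM against 0 to 0.869 CPM (5.71, adjusted p = 0.0408), so its call rested on tagged replicate 1. Pf4, platelet factor 4, was at 851, 0 and 599 CPM against 0.819 to 11.4 CPM (6.88, adjusted p = 0.0311). Flt1, Cldn5, Pf4 and Vwf were among the calls of the stricter rule. Their part in the lung result was not tested. The stricter rule gave 162 calls, 80 of them shared, and leaving out tagged replicate 1 gave 13, untagged replicates 1, 3 and 4 gave 133, 58 and 44.

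**Figure D4:**
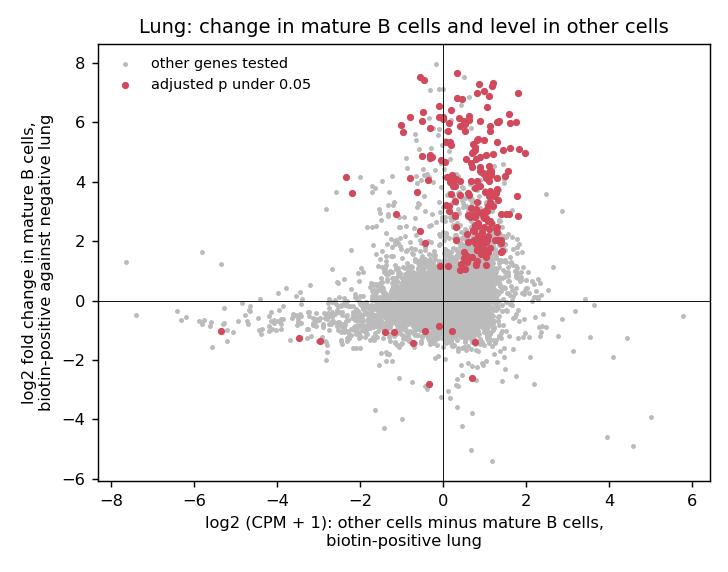
Log2 fold change of tagged against untagged lung members (y axis) for the tested genes, against the difference in log2(CPM + 1) between the other cells and the members of tagged lung (x axis); points are genes, in red where the adjusted p was under 0.05. Of the 208 higher genes 182 lie to the right, where other cells held more, and 3 of the 12 lower ones do.

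The genes lower in tagged lung members included B cell genes. Ebf1 (chr11:44617317-45008091, plus strand) was at 446, 607 and 717 CPM in the tagged samples and at 1089, 1335, 1202 and 1130 CPM in the untagged ones, without overlap, a log2 difference of -1.01 ± 0.27 (SE; adjusted p = 0.0338 by edgeR). Under the stricter rule it was -0.55 (adjusted p = 0.409). Cd55, the complement decay accelerating factor, fell by 1.26 and Gpr174, a lysophosphatidylserine receptor of lymphocytes, fell by 1.36 on the log2 scale. Ifi209, Rbm6, Arhgap15 and Vars fell by 1.42, 1.41, 1.07 and 1.04. These calls were close to the threshold: of 7 fits that each left out 1 sample, 7 ended the call of Cd55 and of Rbm6, 6 that of Gpr174 and of Ebf1, 4 that of Ifi209 and 2 that of Arhgap15 and of Vars, with the sign kept in each.

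Over the 4 tissues, 279 genes (3.49%) passed: 218 (2.73%) were higher and 61 (0.764%) lower in tagged members, of 7989 tested in 11 tagged and 16 untagged samples. The lower genes included several of B cell identity: Ebf1 ran from 446 through a median of 717 to 1381 CPM in tagged samples and from 780 through 1214 to 1960 CPM in untagged ones, a log2 difference of -0.68 ± 0.14 (SE; adjusted p = 0.00501 by edgeR). Ralgps2, a Ras family exchange factor gene, was at 154 ± 40.4 against 260.2 ± 58.3 CPM (SD, n = 11 and 16), a log2 fold change of -0.74 (edgeR adjusted p = 0.00275). Bach2 (-0.72, adjusted p = 0.0477), Pou2af1 (-0.62, 0.0490), Bcl2 (-0.67, 0.0452), Vpreb3 (-0.90, 0.0180), Gimap6 (-0.72, 0.00805) and H2-Ob (-0.61, 0.0251) were also lower. Of 27 fits that each left out 1 sample, 18 ended the call of Bach2, 20 that of Pou2af1 and 20 that of Bcl2 (highest edgeR adjusted p 0.238, 0.377 and 0.266), against 2 for Ebf1 and 1 for Ralgps2. None of 10 MHC class II and none of 12 follicular maturity genes had a positive fold change, with medians of -0.48 and -0.59 where all genes had -0.0812; 1 of each list passed. Of the B lineage transcription factors 3 of 18 passed as lower, and of B cell receptor signalling genes 2 of 17.

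**Figure D5:**
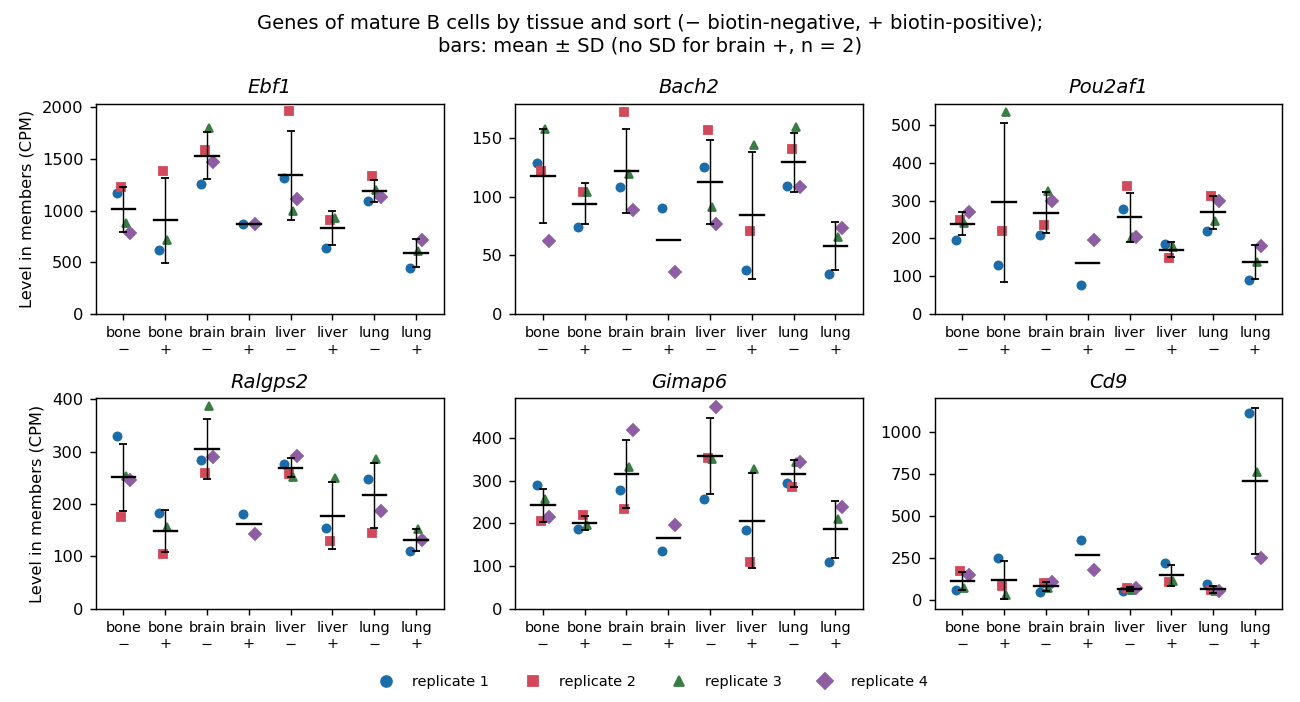
Level of B cell genes in members of untagged and tagged samples, in CPM of summed UMIs (y axis of each panel), by tissue and sort; points are samples with at least 10 members, with marker and colour by replicate number, and black bars are mean ± SD, without SD for tagged brain (n = 2). Tagged samples of lung lie below all untagged ones for Ebf1, and the groups overlap over all tissues.

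Cd9, a tetraspanin of marginal zone and B1 cells that macrophages also express, was at 26.04 to 1113 CPM in tagged and at 45.2 to 170 CPM in untagged samples, a log2 difference of 1.77 ± 0.28 (SE; adjusted p = 0.00104 by edgeR). Nfkbia rose by 0.71 (adjusted p = 0.00534) and Tnf by 1.77 (adjusted p = 0.0107). Ccl3, a chemokine gene, rose by 1.89 (adjusted p = 0.0360) but had a fold change of -3.30 under the stricter rule. Leaving out 1 of 27 samples moved Ccl3 between 1.00 and 2.47 and ended its call in 12 fits, against 2 for Cd9 and Nfkbia and 4 for Tnf. Of the 218 higher genes, 183 (83.9%) had more CPM in the other cells of tagged samples, against 47.8% of all tested and 10 of the 61 lower genes. Members with at least 3 monocyte and macrophage genes (same samples) were 19.6% of tagged and 5.86% of untagged members of bone, 22.2% against 3.55% for brain and 9.55% against 5.62% for liver. These pooled shares leaned on single samples: replicate 1 held 36 of the 37 such members of tagged bone and 7 of the 8 of tagged brain. In tagged liver, replicates 1, 2 and 3 held 7 of 89, 6 of 14 and 2 of 54 members. What this adds to the result was not tested.

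Under the stricter rule, 10 genes passed over the tissues, 9 higher and 1 lower, 6 of the 10 shared, and Ebf1 was at -0.60 (edgeR adjusted p = 0.079). Leaving out the top 5% of doublet scores gave 127 genes, 84 shared. Without tagged brain replicate 1 the count was 0, without tagged bone replicate 1 it was 5 and without tagged lung replicate 1 it was 77, while without tagged brain replicate 4, liver replicate 3 or lung replicate 4 it was 432, 425 and 402. The block on replicate number gave 513 genes, 262 shared, of which 247 were higher and 266 lower, so that the balance of directions depended on the block. Ebf1 kept its sign in 36 alternatives, between -0.82 and -0.56.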

How the data were processed

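The values are UMI counts for each gene and barcode, deposited as 1 matrix per sample. For the 32 intracardiac samples cellranger 6.1.2 made them, per the file headers; the submitters' processing notes name mm10, Cell Ranger and Seurat. Replicates were multiplexed with CellPlex and 3′ libraries, per the labels' protocols. Intervals and zero-count limits (3 counts) cover counting error only. The pooled bone sample of another injection was not used here.

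Members were chosen by the UMI rule in the report, with no doublets removed. Members' counts were summed per sample (at least 10 members) and tested with edgeR 4.0.16 (TMM, robust quasi-likelihood, 1 coefficient per group, filtered by expression, no replicate block, limma 3.58.1, R 4.3.3) and Benjamini-Hochberg adjustment over all genes tested. Standard errors follow from the fold change and its test. DESeq2 1.42.0 was an alternative. Shares were tested with exact two-sided permutations (scipy 1.17.1), and doublet scores came from Scrublet in scanpy 1.11.5. The edgeR step was tested on simulated counts. Promoter windows came from RefSeq, GRCm38.p6. Some genes are not reported here.

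The members and gene lists were chosen with earlier results of these data known. Named genes were, per contrast, the 6 with the largest fold change in each direction among genes past the test with a mean of at least 5 on the log2 CPM scale and no overlap between groups, leaving out gate, immunoglobulin variable, mitochondrial, ribosomal, Xist and Y-linked genes and the lists of other cells, plus up to 4 passing genes (otherwise 2 by level) of each of 23 lists with 272 genes. In bone Gem, Pbk, Plk1, Tpx2, Cdc20, Ccna2, Nusap1, Ckap2l, Siglech, G6pdx, Rnaseh2b, Stfa3, Igkv4-72 and Nr4a1, in lung the NR4A genes, Cd86, Egr3 and Hs3st1, and Vwf, Flt1, Cldn5, Slc2a1 and Spp1 were named after their values were seen.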

Additional observations from a re-analysis of the deposited data

Results flagged for a closer look

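Of 151 groups of 4 samples examined, 14 had 1 sample far from the other 3, where chance gives about 1 in 20, or 7.55. Class-switched cells were 14.5% of members in untagged bone replicate 4 and 5.44% in untagged brain replicate 4, each the highest of its group. Ccna2 was lowest in untagged bone replicate 1, at 15.9 CPM. Cd74 was highest in untagged liver replicate 4, at 14486 CPM, and Cxcr4 in untagged liver replicate 2, at 691 CPM. In untagged lung, H2-Aa was lowest in replicate 2, at 2230.3 CPM, while Ppp1r15a (248 CPM), Siglech (4.55 CPM) and Vpreb3 (305 CPM) were highest in replicate 1. In untagged brain, Nr4a2 was highest in replicate 3, at 16.5 CPM, and Pbk in replicate 4, at 3.86 CPM. Stfa3 was highest in untagged bone replicate 2 at 143 CPM, untagged brain replicate 1 at 1.08 CPM and untagged lung replicate 2 at 8.53 CPM.

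Some differences between tagged and untagged members went opposite ways in every sample pair of 2 tissues, and these contrasts between tissues were not tested. The share of members with Ighd was 11.2 points higher in tagged than untagged brain (n = 2 pairs) and -13.6 points in liver (n = 3), a gap of 24.8 points. The class-switched share moved by -0.58 points in bone and by -2.89 in brain against 3.95 in lung, gaps of -4.53 and -6.84. The share with cell cycle genes moved by -3.36 points in brain against 10.8 in liver and 15.2 in lung, gaps of -14.2 and -18.6.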

How the results depend on the processing

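The deposited replicate numbers share a tag set across groups, the same for numbers 3 and 4. Over 79 pairs of samples with the same number the median correlation of deviations from group means was 0.276 (lowest -0.130, 65 above 0.1; 1986 genes) and over 238 pairs with different numbers -0.101 (46 above 0.1). Most same-number pairs were thus more alike than pairs of different numbers, while the labels do not state a shared source. The block is given as an alternative. The main gene tests and the unpaired tests of shares take same-number samples as independent, so their p-values leave this likeness aside. With the replicate block the counts of genes past the test were 76 (bone), 0 (brain), 0 (liver) and 14 (lung) between tissues, and 1, 50, 37, 458 and 513 for tagged against untagged cells in bone, brain, liver, lung and over tissues.

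For the same 9 comparisons in that order, no low-count filter gave 320, 52, 60, 138, 142, 303, 664, 673 and 715, the stricter rule 2, 0, 0, 5, 0, 166, 0, 162 and 10, the looser rule 3, 0, 0, 1, 0, 14, 50, 239 and 520, at least 20 members a sample 29, 0, 0, 0, 5, 109, 113, 323 and 365, and leaving out the top 5% of doublet scores 9, 0, 0, 2, 0, 22, 0, 288 and 127. DESeq2 gave 0 in lung against other tissues, 11 for tagged brain and 125 for tagged lung, RLE factors gave 28 for tagged liver, and fits of only the groups compared gave 3, 1 and 110 for tagged brain, liver and lung. Leaving out 1 sample at a time gave 0 to 40 in bone, 0 to 1 in brain and 0 to 9 in lung between tissues, and 0 to 1, 0 to 101, 0 to 61, 13 to 301 and 0 to 432 for tagged bone, brain, liver, lung and over tissues. The cause of these shifts was not tested. Without a brain sample the fold change ranged from -1.74 to 10.12 for Flt1, from -3.10 to 7.75 for Cldn5 and from -6.02 to 5.95 for Slc2a1. Spp1 in tagged liver was -0.86 under the stricter rule and -0.49 without the top doublet scores, and Ccl3 over tissues was -3.30 under the stricter rule.

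Of the shares, thinning to 1000 UMIs turned bone minus lung to 0.148 points and brain minus lung to 0.718, bone minus liver among B and T cells to 2.09 and the lambda difference in liver to 4.04. The difference of tagged and untagged lung among B and T cells, 0.0336 points in the report's setting, was -0.252 (looser rule), -4.69 (stricter), -0.729 (without top doublet scores), -8.22 (thinned) and -0.131 (at least 1000 UMIs). The cycling share of bone against other tissues was -1.17 under the stricter rule, and the liver difference of differences was 1.03 on the log2 scale. The Cd93 share of bone passed at 5.81 points with at least 20 members. That setting kept every untagged sample, so the difference was unchanged and only the number of tests adjusted over was smaller.

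Leaving out single samples gave ranges across 0 for the share of bone minus brain (-3.51 to 1.12), bone minus lung (-3.93 to 0.963) and brain minus lung (-2.70 to 2.13), for tagged lung among B and T cells (-4.98 to 6.35), and for the differences of differences in liver (-0.924 to 0.131) and lung (-3.10 to 0.726). They also did so for the lambda share of bone (-1.56 to 3.05), of tagged bone (-3.77 to 0.836) and of tagged liver (-2.09 to 1.16), the class-switched share of bone (-1.76 to 2.82) and of tagged liver (-0.613 to 0.548), and the Ighd share of bone (-0.657 to 5.87). The Cd93 share of bone ranged from 4.75 to 7.23. Counts of genes past the test have no direction, and were taken as kept where close to the reported count. With such counts included, the other 594 values for main results and 1332 for named genes kept their direction and side of the threshold. For named genes 542 kept only the direction, and 31 passed only in the alternative. With the replicate block the latter were Vpreb3 (0.91) and Cxcr4 (-0.98) in bone, Vpreb3 (-1.20) and Cd86 (1.28) in lung and Cxcr4 (-0.66) over tissues, beside a gene not reported here.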

Other observations

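Interferon response genes did not move together in tagged members over the tissues: 7 of 12 had a positive fold change, with a median log2 fold change of 0.0949, and 1, Ifit1, passed at 2.49 ± 0.64 (SE; adjusted p = 0.0217 by edgeR) from 7.77 ± 11.4 against 3.52 ± 6.65 CPM (SD, n = 11 and 16). Of the survival genes, Bcl2l1, which encodes BCL-XL, rose by 1.64 (adjusted p = 0.0319) while Bcl2 fell by 0.67 (adjusted p = 0.0452), both on the log2 scale. Leaving out 1 of 27 samples moved Bcl2l1 between 0.316 and 1.81 (edgeR adjusted p up to 1.00) and ended its call in 10 fits, and ended that of Bcl2 in 20; Ifit1 ranged from 0.789 to 2.76 and was lost in 4 of 26. In tagged lung all 9 heat shock genes had positive fold changes, with a median of 0.91 where all genes had -0.0026, and none passed; in tagged bone, brain and liver 5, 1 and 6 of the 9 were positive, with medians of 0.0859, -0.54 and 0.0462. Immunoglobulin constant genes had a median of -1.73 in tagged bone, -0.88 in tagged liver and -0.60 in tagged lung, with 0 of 11 passing in each. Cxcr4 had a log2 fold change of -0.89 over the tissues (edgeR adjusted p = 0.1), which did not pass, except without tagged liver replicate 3 among the fits that left out 1 sample (0.0369). Cxcr4 also passed with the replicate number as a block.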
